A study of Mus musculus with 14 samples.

Results

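Each RNA library of this mouse cortex series was counted in 2 ways per gene, over exons and over a region that was also counted for ribosome footprints. The difference between the 2 counts was taken as the number of exon reads outside the footprint-matched region. The outside share is that number as a percentage of the gene's exon count. The share was taken for genes with values in both columns and at least 50 exon counts in every RNA library, which left 11757 of the 23412 genes in the table. Of these, 11703 are protein coding in RefSeq.

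The 8 RNA libraries came from 1 mouse each. Control mice 1, 3, 6 and 8 were Rpl22flox/flox;CamKCre+, and Fmr1 knock-out (KO) mice 2, 4, 5 and 7 were Fmr1X-Y; Rpl22flox/flox;CamKCre+. Both genotypes therefore carried the floxed Rpl22 allele, which encodes a ribosomal protein, and the Cre that the labels call CamK-driven, an element active mainly in excitatory forebrain neurons. RNA was total cortical RNA depleted of ribosomal RNA, so it holds transcripts of all cortical cells and not of the Cre-expressing cells alone. Ages are not given in the sources used here.

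A messenger RNA carries a coding sequence, which ribosomes read, between untranslated sequences at both ends. The untranslated sequence after the stop codon holds sites for RNA-binding proteins and microRNAs, and in neurons many genes make transcripts with a longer form of it through a more distant polyadenylation site. FMRP, the product of Fmr1, is an RNA-binding protein that associates with translating ribosomes on many long neuronal mRNAs. The sources used here do not give the bounds of the footprint-matched region, so the outside share is not equated with any named part of a transcript.

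Exon counts summed to between 16351772 and 20793293 per library. The following facts about the libraries touch every comparison below. Control mouse 8 had the lowest outside share of all 8 libraries. KO mice 2, 4 and 7 were the closest to one another, with a median difference per gene of 1.39 to 1.56 percentage points between any pair of them, against 2.21 to 2.48 points for the pairs with KO mouse 5 and 1.82 to 3.94 points for the control pairs.

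In control cortex the outside share varied widely between genes. The median gene had 36.7% of its exon counts outside the footprint-matched region, and the quartiles stood at 19.7% and 55.5%. The share ran from 3.33% at the 5th percentile to 78.3% at the 95th. It exceeded 50% in 3748 genes (31.9%) and 90% in 77 genes (0.655%), and it lay below 1% in 342 genes (2.91%). Genes with high counts had higher shares: the median was 30.3% in the 2162 genes with a mean of 50 to 200 exon counts, 35.2% in 5281 genes with 200 to 1000, 41.1% in 3626 genes with 1000 to 5000, and 48.9% in the 669 genes above that. Across genes, which are not independent replicates, Spearman's rho between share and exon count was 0.169.

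**Figure D1:**
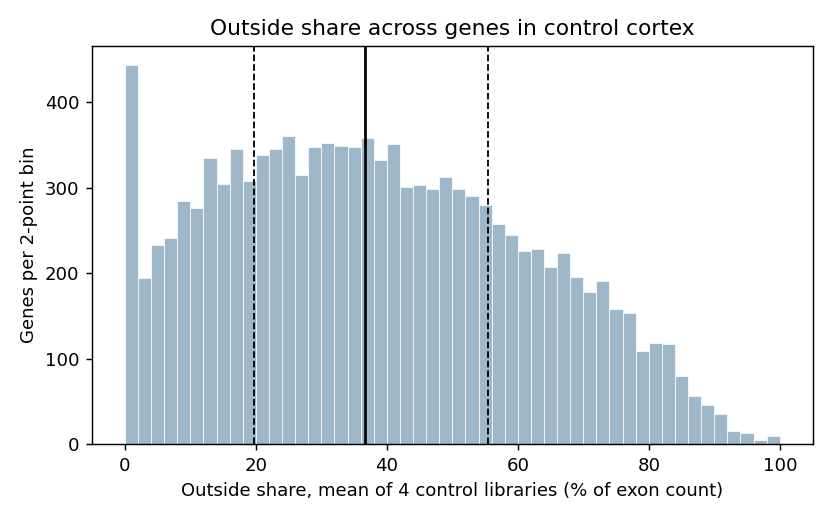
Number of genes (vertical axis) in bins of 2 percentage points of the outside share (horizontal axis, mean of 4 control libraries), with the median as a solid line and the quartiles as dashed lines. The distribution is broad around a median of 36.7% with a separate peak in the lowest bin; 14 genes with a mean below 0 are not drawn.

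The spread between control mice was compared with counting error by depth. The median standard deviation (SD) over the 4 control libraries was 3.90 points at 50 to 200 counts, where binomial counting gives 3.82 points. Above 5000 counts it was 1.66 points, where counting gives 0.488 points.

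At the upper end stood genes whose reads lay almost wholly outside. Tgoln1, Cxx1b and Sap18 had a control mean share of 100%. How reads with several matches were counted is not given in the sources used here, and its part in these values was not tested. Hrk, which encodes a pro-apoptotic BH3-only protein, had 98.8% ± 0.540 (SD, n = 4). The ubiquitin-conjugating enzyme genes Ube2v2 and Ube2l3 had 98.4% ± 0.693 and 97.8% ± 0.799. Purb, a single-stranded nucleic acid binding protein, had 97.1% ± 0.258 at a mean of 25712 exon counts, so its high share rested on a deep count. D430019H16Rik followed at 96.3% ± 0.150.

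At the lower end, 27 of 6645 protein-coding genes with a mean of at least 500 exon counts had a mean share of 0 or less, and 11 of these encode cytosolic ribosomal proteins. Exactly 0 was found in 23 of them and a value below 0 in 4. Of those at 0, the most deeply counted were Rplp1 and Rps15, which encode ribosomal proteins, and Myl6, a myosin light chain. The 4 below 0 were Hnrnpa3 (-2.55% ± 17.8), Rpl13a (-1.43%), Rps21 (-0.294%) and Rps2 (-0.0107%). A negative value means that the footprint-matched count was the larger, so the exon column does not always contain the other column. This occurred in at least 1 library for 19 genes, none of which entered the main test. It occurred in all 8 libraries for Glrx3, Ntng2, Psmb5, Raver1, Rps21, Sco2, Ubb and Ube2j2. The control mean of these genes was -839% for Ubb, -238% for Ube2j2, -142% for Sco2, -103% for Glrx3 and -94.7% for Raver1. It was -64.0% for Psmb5, -17.4% for Ntng2 and -0.294% for Rps21. In such genes the difference of the columns is not a count of reads outside a region.

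Of 75 cytosolic ribosomal protein genes, 53 had a share below 1%, against 342 of all 11757 genes, and the list's median was 0.23%. Its 3 genes above 50% were Rpl39 at 82.4%, Rpl41 at 77.8% and Rpl15 at 65.5%. The 72 respiratory chain subunits had a median of 16.7%, with Ndufb7, a complex I subunit, at 0 and Sdhd, a membrane anchor of complex II, at 67.7%. Histone genes of the replication-dependent clusters mostly make mRNAs that end in a stem-loop instead of a poly(A) tail. Of the 28 with such a cluster symbol among the genes analysed, 14 had a control share of 0 and 17 one below 1%, and the median was 0.29%. The 3 above 50% were Hist2h3c1 at 100%, Hist2h2be at 79.0% and Hist1h2bc at 64.9%. The list used for histones holds only 12 of the 28, with a median of 9.31%, and the wider set was taken after the values were seen.

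Neuronal RNA-binding proteins had the highest median of the lists. Their 30 genes had a median of 67.0%, and 21 of them exceeded 50%. The splicing regulator Nova2 had the highest share (81.7%), followed by Celf1 (80.8%) and Elavl1 (80.4%), whereas Cpeb4, a cytoplasmic polyadenylation element binding protein, had 6.95%. The 22 cleavage and polyadenylation factors had a median of 32.2%, from Cpsf1 at 0 to Nudt21, the small subunit of cleavage factor I, at 74.4%.

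The 119 genes listed as FMRP targets had a median of 25.6%, below the 36.7% of all genes, 18 of them exceeded 50%, and their range ran from the NMDA receptor subunit gene Grin2a (0.01%) to the 14-3-3 gene Ywhag (76.4%). The 24 dendritically localized mRNAs had a median of 38.4%, and the 18 immediate early genes one of 39.1%, from the nuclear receptor gene Nr4a3 (1.44%) to Btg2 (80.9%). The 14 selenoprotein genes, whose mRNAs carry a selenocysteine insertion element after the stop codon, had a median of 38.7%, from the glutathione peroxidase gene Gpx4 (0.06%) to the deiodinase gene Dio2 (88.2%). These values describe the lists and were not tested against the other genes.

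**Figure D2:**
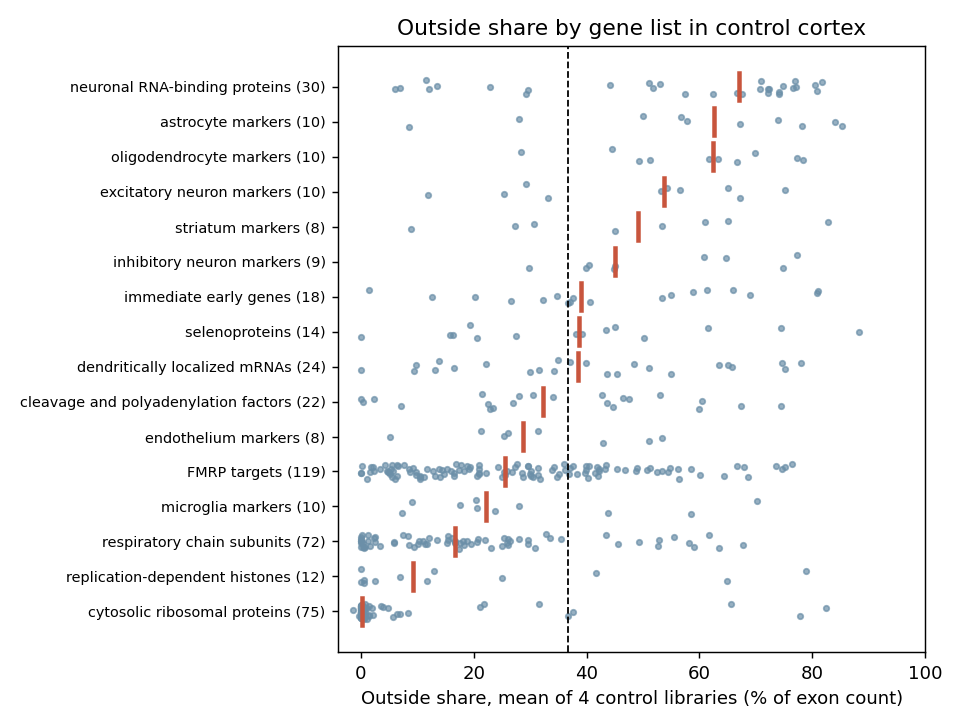
Outside share in control cortex (horizontal axis, mean of 4 libraries) for each gene of 16 lists, with the number of genes in parentheses, a red bar at each list's median and a dashed line at the median of all 11757 genes. Medians run from 0.23% in cytosolic ribosomal proteins to 67.0% in neuronal RNA-binding proteins, and most lists hold both low and high genes.

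Genes that encode the same or nearly the same protein had unlike shares. Calm2 and Calm3 encode the identical calcium-binding protein, and their control shares were 42.6% ± 2.42 and 65.0% ± 2.17 (SD, n = 4). The control libraries of these genes did not overlap. For histone H3.3, H3f3b had 41.9% ± 3.90 and H3f3a 28.3% ± 7.06. For cytoplasmic actin, Actb had 33.4% ± 1.99 and Actg1 0.985% ± 0.808. Reads shared between such copies are uncertain, because the counting of reads with several matches is not given in the sources used here. No share can be given for the ubiquitin gene Ubb, because its value was negative in every library.

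With all 8 libraries, the share of the library as a whole did not differ between genotypes beyond the spread between mice. Over the summed counts of all 11757 genes the share was 44.1%, 45.8%, 44.7% and 42.3% in control mice 1, 3, 6 and 8, and 43.4%, 44.03%, 45.002% and 43.7% in KO mice 2, 4, 5 and 7. Every KO library lay between the lowest and the highest control. The means were 44.2% ± 1.47 and 44.05% ± 0.681 (SD, n = 4 each; exact two-sided permutation test, p = 0.8286, where 4 against 4 allows a smallest p of 0.0286). The median gene's share was 37.1%, 38.6%, 36.99% and 34.3% in the controls and 35.6%, 36.2%, 36.6% and 35.9% in the KO mice. Its means of 36.7% ± 1.79 and 36.1% ± 0.431 differed by -0.644 points (exact permutation test, p = 0.571). This comparison rested on single control libraries. Without control mouse 8 the difference was -1.47 points and every remaining control lay above every KO mouse (exact permutation test, p = 0.0571, the smallest that 3 against 4 allows), and without control mouse 3 it was -0.035 points. Within mice 5 to 8 its sign turned, at 0.637 points. The whole-library difference of -0.192 points became -0.839 without mouse 8, 0.334 without mouse 3 and 0.845 within mice 5 to 8.

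**Figure D3:**
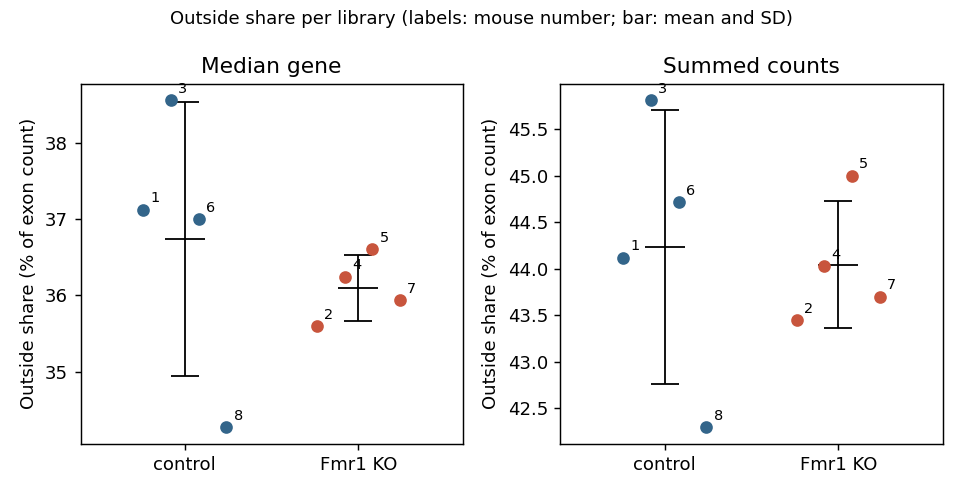
Outside share per library (vertical axis, % of exon count) for the median gene and for the summed counts, by genotype, with the mouse number beside each point and the mean and SD as a bar. KO libraries fall within the range of the controls on both measures, and control mouse 8 is lowest.

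Fmr1 itself had far fewer exon counts in KO mice (363 to 538) than in controls (1429 to 2019), with no overlap, while its outside share stayed in the same range. Control mice 1, 3, 6 and 8 had 920 of 1813 (50.7%), 1170 of 2019 (57.9%), 893 of 1638 (54.5%) and 697 of 1429 (48.8%) exon counts outside. KO mice 2, 4, 5 and 7 had 235 of 475 (49.5%), 281 of 538 (52.2%), 207 of 363 (57.0%) and 280 of 510 (54.9%). The KO transcripts that were counted therefore held reads in both regions. The mean shares were 53.0% ± 4.07 and 53.4% ± 3.28 (SD, n = 4 each; exact permutation test, p = 0.857), and edgeR gave a log2 odds ratio of 0.013 ± 0.13 (standard error, SE) with an adjusted p of 0.991.

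Gene by gene, the odds of a read falling outside were compared between genotypes with edgeR's quasi-likelihood test in 11110 genes, each mouse serving as its own reference between the 2 regions. The log2 odds ratio (KO over control) had a median of -0.050, was below 0 in 62.9% of genes and lay within 0.5 of 0 in 97.1%. With TMM factors, which scale each region separately, the median was -0.007 and 52.2% of genes were below 0. The median also moved with the libraries, to -0.10 without control mouse 8 and -0.0100 without control mouse 3, and it was -0.14 within mice 1 to 4 and 0.032 within mice 5 to 8. Genes were called at an adjusted p under 0.05 over all genes tested. The share was lower in KO cortex in 4 called genes (0.036% of those tested) and higher in 2 (0.018%). Without adjustment, 1112 genes (10.01%) had p under 0.05. Shares that did not overlap between genotypes were found for 479 genes lower in KO (4.31%) and 199 higher (1.79%), and all 6 called genes were among them.

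Stmn1, the gene of the microtubule-destabilizing protein stathmin, had the lowest adjusted p. Its outside share was 39.6%, 39.0%, 38.6% and 33.7% in control mice 1, 3, 6 and 8, and 25.7%, 25.5%, 27.0% and 25.6% in KO mice 2, 4, 5 and 7. Every KO library was more than 6 points below the lowest control, mouse 8. The log2 odds ratio was -0.79 ± 0.094 (SE; edgeR adjusted p = 0.00365). Counts scaled to the library's exon total (CPM) in the matched region were 99.7% of control in the KO mice, and those outside were 58.1%.

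Hspa8 encodes the constitutive chaperone Hsc70. Its share was 11.2%, 15.5%, 11.2% and 10.4% in the controls and 7.61%, 8.01%, 8.33% and 7.73% in the KO mice, so the groups did not overlap and control mouse 3 stood above the other controls. The log2 odds ratio was -0.66 ± 0.11 (edgeR adjusted p = 0.0498). As in Stmn1, counts in the matched region were near control (103%) and those outside were lower (63.5%).

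Camk2a, the alpha subunit of calcium/calmodulin-dependent kinase II, is a dendritically localized mRNA and an FMRP target. Its share was 77.1%, 76.3%, 75.4% and 71.5% in controls and 68.3%, 67.8%, 67.0% and 68.2% in KO mice, again without overlap and with control mouse 8 nearest to the KO mice. The log2 odds ratio was -0.52 ± 0.085 (edgeR adjusted p = 0.0437). Both regions had higher counts in the KO mice, the matched region 168% of control and the outside region 118%. It was the only called gene among the 116 tested FMRP targets, the 23 tested dendritic mRNAs and the 10 excitatory neuron markers.

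Prkaca encodes a catalytic subunit of protein kinase A. Its share was 42.1%, 39.0%, 39.98% and 40.1% in controls and 32.7%, 33.1%, 33.3% and 32.5% in KO mice. The 2 groups were separated by more than 5 points, a gap larger than the range within either. The log2 odds ratio was -0.46 ± 0.075 (edgeR adjusted p = 0.0437), with KO counts at 118% of control in the matched region and 85.5% outside.

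The 2 genes with a higher share were Thra and Fam32a. Thra encodes thyroid hormone receptor alpha, a gene known for isoforms with different ends. Its share was 10.3%, 9.57%, 11.3% and 10.7% in controls and 14.7%, 13.8%, 14.0% and 13.9% in KO mice, without overlap (log2 odds ratio 0.49 ± 0.078, edgeR adjusted p = 0.0437). KO counts of Thra were 88.9% of control in the matched region and 124% outside, where they were 48.8 ± 7.87 CPM in controls against 60.6 ± 3.37 CPM with the knock-out (SD). Thra overlaps Nr1d1, a circadian nuclear receptor gene, in RefSeq, and the strand setting of the counting is not given, so reads of the 2 genes may not be separate. Exon counts of Nr1d1 were 50.1 ± 1.28 CPM in the control group against 63.4 ± 6.32 CPM with the knock-out (SD, n = 4 each), without overlap, close to the outside counts of Thra in both genotypes. Their part in the Thra result was not tested.

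For Fam32a the share was 65.9%, 66.1%, 68.3% and 67.0% in controls and 77.1%, 74.2%, 74.9% and 73.5% in KO mice. All 4 KO libraries were above all controls (log2 odds ratio 0.57 ± 0.096, edgeR adjusted p = 0.0498). Here the outside counts were 99.98% of control and the matched region was lower at 67.4%.

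**Figure D4:**
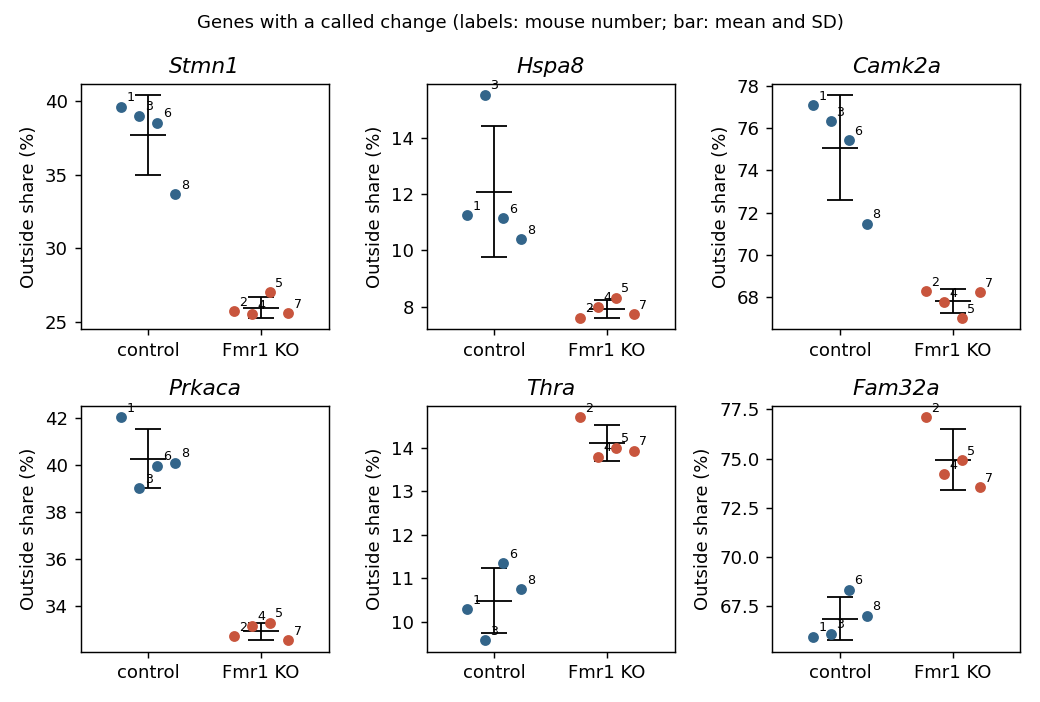
Outside share per library (vertical axis, % of exon count, not starting at 0) of the 6 called genes, control in blue and KO in red, with mouse numbers and the mean and SD as a bar. Genotypes do not overlap in any of the 6; Stmn1, Hspa8, Camk2a and Prkaca are lower in KO and Thra and Fam32a higher.

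These 6 calls depended on which libraries were used. With KO mice 2, 4 and 7 summed to 1 library edgeR called no gene (485 at an unadjusted p under 0.05), and the adjusted p of Stmn1 was 0.746. The log2 odds ratios in that fit were -0.76 ± 0.13 for Stmn1, -0.63 ± 0.16 for Hspa8, -0.54 ± 0.12 for Camk2a, -0.45 ± 0.11 for Prkaca, 0.48 ± 0.11 for Thra and 0.57 ± 0.13 for Fam32a (SE). The titles of mice 5 to 8 share a prefix. Within these 4 mice edgeR called no gene (488 at an unadjusted p under 0.05), while 1350 were called within mice 1 to 4; the log2 odds ratio of Stmn1 was -0.66 ± 0.16 and -0.91 ± 0.100 (SE) in these sets. With the prefix as a block only Stmn1 was called. Leaving out control mouse 8 raised the count from 6 to 536, while leaving out KO mouse 4 or control mouse 6 gave 0, mouse 1, 2, 5 or 7 gave Stmn1 alone, and control mouse 3 gave Stmn1, Hspa8 and Prkaca. The direction of all 6 genes was the same in each of 21 alternatives. Shares of these 6 genes did not overlap between genotypes, so leaving out or summing libraries could not turn the direction. The other alternatives refit the same counts, so the unchanged direction is not a further test.

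Scaling each region by its own TMM factor called 36 genes (0.324%), 25 lower and 11 higher in KO. All 6 genes above were among them, DESeq2 called 24 of the 36, and 34 of the 36 had shares that did not overlap between genotypes. Among all genes tested, 4.31% did not overlap and were lower in KO, and 1.79% were higher. DESeq2 and the overlap use the same 8 libraries as the calls, so neither is an independent check. The adjusted p-values of the genes below lay between 0.00141 and 0.0468 (edgeR with TMM factors), these genes were chosen after their values were seen, and means are given with their SD (n = 4 each). Among those lower in KO were Car14, a carbonic anhydrase, from a mean share of 48.5% ± 6.08 to 31.1% ± 4.87, and Cryab, a small heat shock protein, from 37.2% ± 5.43 to 26.1% ± 0.592. Stmn4, another stathmin, went from 35.9% ± 4.45 to 26.2% ± 3.65, and the growth factor gene Ptn from 25.7% ± 4.56 to 18.3% ± 1.27. Pink1, a mitochondrial kinase gene, went from 37.0% ± 3.13 to 30.6% ± 1.81, and the respiratory chain genes Cox5b and Atp5b from 23.0% ± 3.64 to 17.4% ± 0.480 and from 9.42% ± 0.678 to 7.33% ± 0.242. Camk2n1, an inhibitor of CaM kinase II, had 91.03% ± 1.503 in controls and 88.5% ± 0.202 in KO. DESeq2 did not call Camk2n1 (adjusted p = 0.121), Cox5b (0.0969) or Pink1 (0.0707), and gave no adjusted p for Car14. Among those higher in KO were the phosphatase regulator Arpp19 (70.004% ± 2.11 to 75.9% ± 0.439), the glia maturation factor gene Gmfb (84.5% ± 0.589 to 87.6% ± 0.607), the retromer gene Vps26b (64.9% ± 1.495 to 70.2% ± 1.07) and the proteasome gene Psmb7 (6.34% ± 1.67 to 10.6% ± 1.64). The limit on overlapping genes given for Thra holds for Car14 and Vps26b too. Car14 overlaps Aph1a, at 13.6 ± 0.668 CPM in controls against 15.5 ± 0.886 with the knock-out. Vps26b overlaps Thyn1, at 29.6 ± 1.58 CPM against 25.6 ± 0.953, and neither neighbour's libraries overlapped between genotypes. RefSeq also places Gm46632 over Camk2a, Hspb2 and 2310030G06Rik over Cryab, Gm51714 over Arpp19 and Gm13586 over Psmb7. The libraries of Hspb2 and 2310030G06Rik overlapped between genotypes, and counts of the other 3 were not analysed here. The part of these neighbours in the results was not tested.

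**Figure D5:**
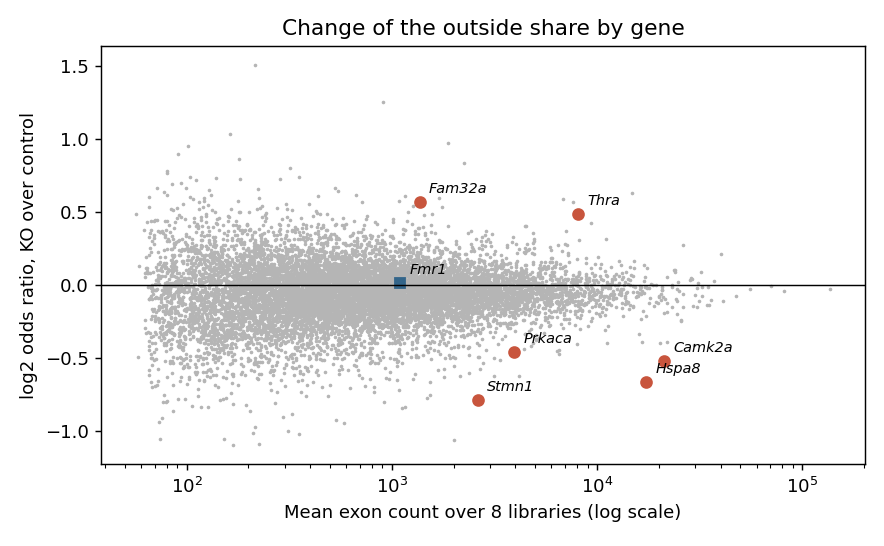
Log2 odds ratio of the outside share, KO over control (vertical axis), against the mean exon count over 8 libraries (horizontal axis, log scale) for 11110 genes in grey. The 6 called genes are red circles, between -0.79 and 0.57, and Fmr1 is a blue square at 0.013.

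None of the calmodulin, H3.3 and actin genes named above was called. Calm2 came nearest, with 42.6% ± 2.42 in controls and 47.3% ± 1.72 in KO mice, groups that did not overlap (log2 odds ratio 0.27 ± 0.081, edgeR adjusted p = 0.251; 0.0341 with TMM factors). Calm3 had 65.0% ± 2.17 and 66.4% ± 0.716 (log2 odds ratio 0.090 ± 0.074), and so stood above Calm2 in both genotypes.

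The lists are described by their counts. With 0.036% of all tested genes called lower and 0.018% higher, and 0.324% called with TMM factors, a list of this size would hold few calls or none whatever its genes, and nothing is read from their number. Of 116 tested FMRP targets, 86 had a log2 odds ratio below 0 and 30 above, with a median of -0.071, beside -0.050 and 62.9% below 0 in all genes tested. With TMM factors 66 were below 0 (median -0.030), beside 52.2% of all genes. The 62 tested respiratory chain subunits had 45 below 0 and a median of -0.13, with no call; with TMM factors 44 were below 0 and Cox5b and Atp5b were called. For the 30 neuronal RNA-binding proteins 18 were below 0 (median -0.048), for the 20 cleavage and polyadenylation factors 10 (median -0.002), for the 17 immediate early genes 10 (median -0.025), and for the 13 selenoprotein genes 7 (median -0.025); with TMM factors the medians of the last 3 were above 0. The 28 tested ribosomal protein genes had 16 above 0 and a median of 0.13, and the 7 tested histone genes 5 above 0 and a median of 0.30. Camk2a was the only called gene in these 8 lists.

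Markers of cell types were measured in the same libraries, and all 10 excitatory neuron markers passed the count minimum. Their summed exon counts were 3093 to 3618 CPM in controls against 3843 to 4010 CPM with the knock-out, and those of the 10 oligodendrocyte markers 8005 to 8342 and 6997 to 7344 CPM, neither overlapping. Camk2a, itself called, is an excitatory marker. It had 255 CPM (matched) and 765 CPM (outside) in controls against 429 and 903 CPM with the knock-out. Sums also did not overlap for lists that mark no cell type: same-protein genes, ribosomal proteins, respiratory chain, histones and FMRP targets. Sums overlapped for the dendritic, immediate early, polyadenylation, neuronal RNA-binding and selenoprotein lists. In bulk tissue, fewer cells of a type and less RNA per cell cannot be told apart. Of the oligodendrocyte markers, 9 of 10 had a log2 odds ratio below 0 (median -0.12, none called; 7 of 10 with TMM factors), from Mag with a control share of 28.4% to Mbp, the myelin basic protein gene, with 78.3%. Hypothalamus markers summed to 47.9 to 68.2 CPM in the control group against 21.4 to 27.6 CPM with the knock-out, and 3 of these 8 markers passed the count minimum. Choroid plexus markers, 3 of 6 of which passed, summed to 19.1 to 221 CPM and 15.1 to 94.4 CPM, which overlapped. The hemoglobin genes Hba-a1 and Hba-a2 were at 0 in every library, and no other marker list held a gene at 0 throughout. Alas2, the red blood cell marker that passed the count minimum, had a mean of 356 exon counts over the 8 libraries. The zeros therefore do not show that red blood cell RNA was absent. The part of these marker differences in the share results was not tested.

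Marker genes also differed among themselves in control share. Medians were 62.5% for astrocytes, with Sox9 at 85.2% and Aldh1l1 at 8.48%, 62.4% for oligodendrocytes, 53.8% for excitatory neurons, 45.0% for inhibitory neurons, 28.8% for endothelium and 22.1% for microglia, with Cx3cr1 at 70.1%.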

How the data were processed

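The authors deposited 1 table of whole-number counts per gene, not normalized. Per the submitters' processing notes, Bowtie2, STAR 2.5, featureCounts, Subread 1.4.6 and the builds mm9 and mm10 were used, with no roles given; the annotation, strand setting and region counted are not given in the sources used here. The outside count is the exon count minus the count of the column without a suffix. Genes needed a mean of at least 10 counts in each region and no negative difference to be tested (11110 of 11757; 628 fell under the mean and 19 were negative). The RefSeq table (GRCm38.p6) matched 11001 genes by symbol and 711 by an older symbol; 45 were unmatched, and 20 genes with date names are not named.

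The counts inside and outside were fitted together with edgeR 4.0.16 (quasi-likelihood, R 4.3.3) over 16 columns, with a term for each mouse, the region and the genotype by region, and 6 residual degrees of freedom. P-values were adjusted by Benjamini and Hochberg's method. SE was derived from the F statistic. Alternatives were TMM factors, DESeq2 1.42.0, limma 3.58.1 on log2 ratios, other count minimums and negative differences set to 0. Others were a block for the title prefix, summed libraries and each mouse left out. Library values were compared by an exact two-sided permutation test with 70 arrangements (scipy 1.17.1). Depth was 16351772 to 20793293 exon counts, so that Wilson intervals at 95% for whole-library shares reach at most 0.0244 points; those for the called genes reach at most 2.54 points. They cover counting error only. The fit was tested on simulated data.

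Named genes were Fmr1, the 8 highest and 8 lowest control shares among protein-coding genes with at least 500 mean exon counts (ties at 0 ordered by count), up to 10 rises and 10 falls among called genes with at least 200 mean exon counts whose groups do not overlap, genes that share a protein, and the extremes and called genes of each list; further genes of the lists were named after their values were seen. Some genes that this rule names are not reported here. The genes and lists were chosen with earlier results of these data known. None of the 13 mitochondrially encoded genes listed was found among the genes analysed.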

Additional observations from a re-analysis of the deposited data

Results flagged for a closer look

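Among 34 groups of 4 libraries examined, 3 had 1 library far from the other 3, by a gap above Dixon's 95% critical value; chance gives about 1 in 20 groups. For Stmn1, KO mouse 5 had an outside share of 27.0%, while the other KO mice had 25.5% to 25.7%, a gap of 0.873 of the range. For Hspa8, control mouse 3 had 15.5%, while the other controls had 10.4% to 11.2%, a gap of 0.836. The groups remained apart in both genes. For Actb, control mouse 8 had 30.5%, while the other controls had 34.1% to 34.8%, a gap of 0.833.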

How the results depend on the processing

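The 6 calls became 36 with TMM factors of each region, 37 with DESeq2, 1 with limma, 1 with the title prefix as a block, 0 in mice 5 to 8 only, 0 with KO mice 2, 4 and 7 summed, 0 with control mice 1 and 3 also summed, 1350 in mice 1 to 4 only and 324 without mouse 8 with TMM factors; the last 2 were chosen after seeing the data. Leaving out 1 library gave 0 to 536 calls. With negative differences set to 0 there were 4 calls, without Hspa8 and Fam32a. Of 1198 genes called lower in mice 1 to 4, 47.7% were below 0 in mice 5 to 8, beside 44.1% of all genes tested; of 152 called higher, 67.1% were above 0, beside 55.9%. The cause was not tested. Over the 21 alternatives the log2 odds ratio ran from -0.91 to -0.66 for Stmn1 (called in 16), -0.85 to -0.47 for Hspa8 (8), -0.63 to -0.41 for Camk2a (9), -0.49 to -0.38 for Prkaca (10), 0.39 to 0.59 for Thra (9) and 0.46 to 0.67 for Fam32a (8).

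The Fmr1 log2 odds ratio was -0.20 in mice 1 to 4 only and 0.24 in mice 5 to 8 only, and -0.069 to 0.11 with 1 library left out. The whole-library difference was 0.845 points in mice 5 to 8 only, and -0.839 to 0.334 with 1 library left out. The difference of the median share was 0.637 points in mice 5 to 8 only. The control median was 38.5% at a minimum of 200 exon counts. Calm3 turned to -0.028 in mice 5 to 8 only. Replicate numbers only name the samples and were not used as a block; the title prefix, which mice 1 and 2, 3 and 4, and 5 to 8 share, was. Counting error alone gave an SD of 3.82 points at 50 to 200 counts, which limits what can be seen in those genes.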

Other observations

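In 75 of the 11757 genes the exon count and the matched count were equal in all 8 libraries. They include Rps15, Rpl18, the largest subunit of RNA polymerase II (Polr2a), the endosomal GTPase gene Rab7, the protocadherin gene Pcdhac2 and Cntnap5a, a neurexin-like adhesion gene, all named after their values were seen. In 4 genes (Tgoln1, Sap18, Cxx1a and Hist2h3c1) no library had a count in the matched region.

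Across 11746 genes in controls, Spearman's rho between the outside share and footprint counts per matched RNA count was 0.182 (3 footprint libraries). The 2 measures share the matched RNA count, and genes are not independent replicates. The 267 genes whose lowest exon count was 50 to 59 had a median share of 30.2%, and the 243 genes just under the minimum, at 40 to 49, one of 28.6%.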
